A study of Mus musculus with 10 samples.

Results

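A set of 10 genes of pancreatic ducts and simple epithelium was followed in islets of Men1 heterozygous and wildtype mice: Krt19, Krt7, Krt8, Krt18, Sox9, Cftr, Muc1, Epcam, Aqp1 and Car2. They were taken as every probe set whose platform annotation gives 1 of these 10 symbols, which found 16 of 45037 probe sets. Of these, 13 probe sets for 8 genes exceeded 4 on the log2 scale in 5 or more of the 10 mice and were tested, while the 2 for Cftr and the 1 for Car2 did not. Islet RNA came from 5 female mice heterozygous for Men1 and 5 female wildtype littermates, all aged 5 weeks and of the strain labelled C57 on a 129 background. Men1 encodes the tumour suppressor menin, and the sources used here do not say which allele was lost or how. The islets of 1 mouse, about 100, were pooled into 1 sample, 100 ng of its RNA was amplified over 2 cycles, and 1 expression array was hybridised per mouse, which gives n = 5 separate mice per genotype.

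The exocrine pancreas drains through ducts lined by a simple epithelium, which adds bicarbonate and water to the enzymes released by acinar cells. Ducts lie close to islets, and islets isolated from the pancreas carry some duct, acinar, vessel and connective tissue with them. In the adult pancreas Krt19, Krt7, Sox9 and Cftr are held to mark ducts and are called duct-restricted here. This name comes from outside these data and was not tested in them. Krt8, Krt18 and Epcam are made by many simple epithelia, islets and acini included. Muc1 is also made by acinar cells, Aqp1 also by endothelium, mesothelium and red cells, and Car2 also by red cells, and these 6 genes are called broadly made.

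All values are log2 values made by the authors with GCRMA, a method that adjusts background by probe sequence and normalizes arrays to one another. Array medians ranged from 3.28 to 3.40, pairs of arrays correlated at r = 0.987 to 0.995, and the number of arrays limits the precision. The beta cell gene Ins2, a defining gene of the labelled tissue, averaged 16.23 ± 0.024 in heterozygous islets and 16.28 ± 0.073 in wildtype islets (SD, n = 5 each). Differences are heterozygous minus wildtype. They were tested with limma over 18567 probe sets with Benjamini-Hochberg adjustment, and each SE given is that of the difference. Heterozygous replicates 2 and 5 stood apart in lymphocyte markers, whose list mean was 7.33 and 6.87 there against 4.50 to 4.63 in the other heterozygous mice and 4.60 to 5.87 in wildtype mice.

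Among the tested probe sets 12 had a lower and 1 a higher mean in heterozygous islets, and 0 of 13 passed an adjusted p of 0.05 (limma), as did 0% of all probe sets. At an unadjusted p under 0.05 there was 1 member, Aqp1, on the lower side, as were 1.52% of all probe sets, and there were 0 members on the higher side, against 2.57% of all (4.09% in either direction). The groups overlapped for each of the 13, against 0.700% of all probe sets without overlap. Over all probe sets 43.6% had a lower mean, and probe sets of 1 gene are not independent. Fewer cells of a type and less RNA per cell cannot be told apart in such samples. Without heterozygous replicates 2 and 5, the differences given next were -0.46 for Krt19, -0.14 for Krt7, -0.036 for Sox9, -0.031 for Krt8, -0.11 for Krt18, 0.43 for Muc1, -0.25 for Epcam and -0.70 for Aqp1, with 0 adjusted calls (limma).

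**Figure D1:**
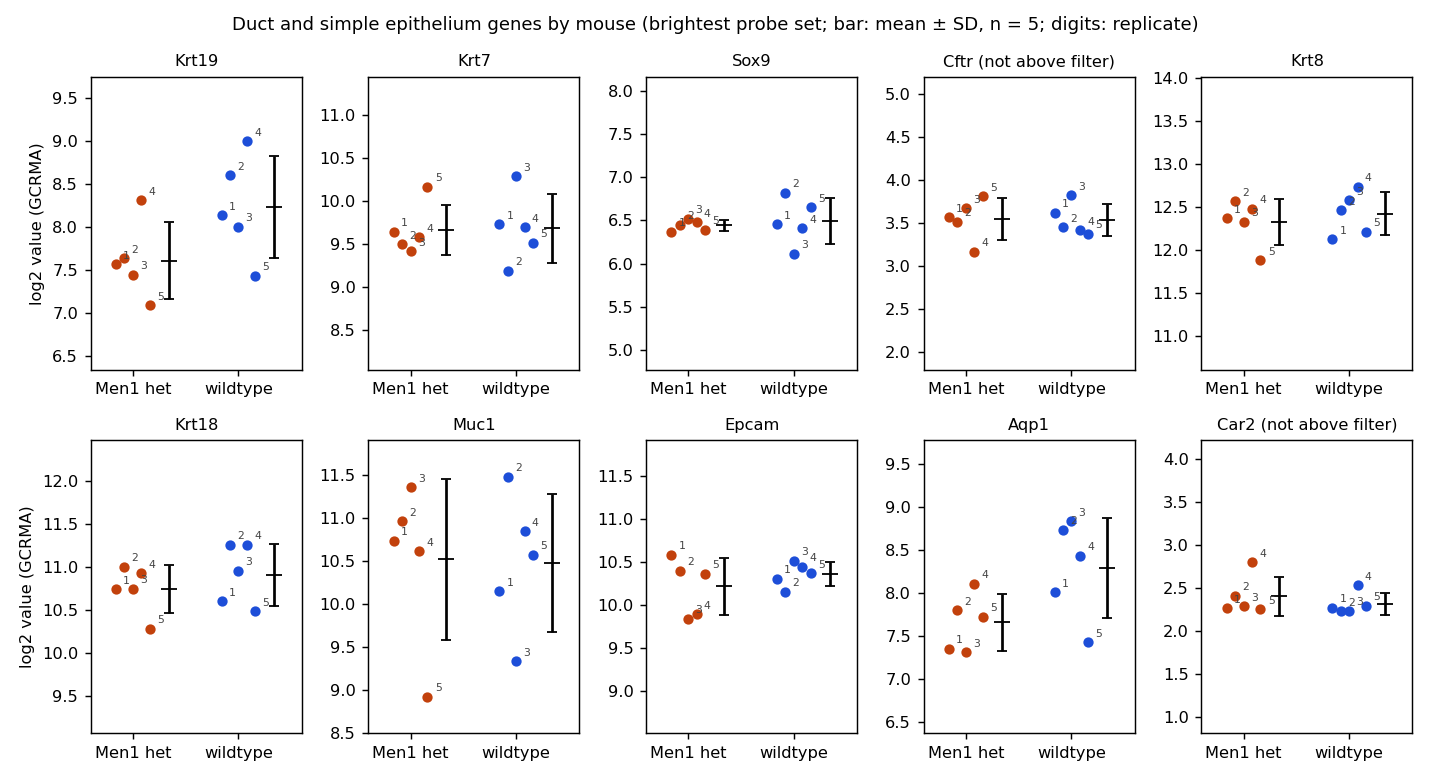
Log2 values of the 10 genes in each mouse (vertical axis, each panel spanning the same height), with Men1 heterozygous mice left of wildtype mice, the replicate number beside each point and the mean ± SD (n = 5) as a bar. Krt19 and Aqp1 had the widest differences between group means, both lower in heterozygous mice with overlapping groups. Muc1 had the widest spread between mice, and Cftr and Car2 lay below 4 throughout.

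Keratins form the intermediate filaments of epithelial cells as pairs of a type I and a type II chain. Krt19 is a type I keratin of ducts. It stood at 7.57, 7.64, 7.45, 8.31 and 7.09 in heterozygous replicates 1 to 5, against 8.14, 8.60, 8.002, 8.997 and 7.43 in wildtype replicates 1 to 5. Of the heterozygous mice 4 lay below the wildtype mean, with replicate 4 above it, and wildtype replicates 1, 3 and 5 lay among the heterozygous values. The difference was -0.62 (SE 0.29), which puts heterozygous islets at 64.9% of wildtype (95% interval 41.4% to 101.8%). The unadjusted limma p was 0.0580 and the adjusted p = 0.9999, and an exact two-sided permutation test over the 252 assignments gave p = 0.103, where the smallest possible is 0.00794. These tests treat the mice as unpaired. With the replicate number as a block the SE was 0.12 and the unadjusted limma p 0.00121, with an adjusted p = 0.9999. The sources used here do not say whether same-numbered mice share a litter, so it is open which fit applies.

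Krt7, a type II keratin also counted as a duct marker, showed another pattern. Its values were 9.64, 9.50, 9.41, 9.58 and 10.16 in heterozygous replicates 1 to 5, and 9.73, 9.19, 10.29, 9.69 and 9.51 in wildtype replicates 1 to 5. Heterozygous replicate 5 and wildtype replicate 3 were the high ones, and the groups overlapped widely. The difference was -0.022 (95% interval -0.47 to 0.43, limma adjusted p = 0.9999).

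Krt8 and Krt18 are the first keratin pair of simple epithelia. The brightest of the 3 Krt8 probe sets stood at 12.37, 12.57, 12.34, 12.48 and 11.89 in heterozygous replicates 1 to 5, and at 12.13, 12.47, 12.58, 12.74 and 12.22 in wildtype replicates 1 to 5. Krt18 stood at 10.74, 11.01, 10.75, 10.93 and 10.28 in heterozygous replicates 1 to 5, and at 10.60, 11.26, 10.95, 11.26 and 10.49 in wildtype replicates 1 to 5. Heterozygous replicate 5 was the lowest of all 10 mice for both genes, and wildtype replicates 2 and 4 were the highest for Krt18. The differences were -0.098 for Krt8 (95% interval -0.44 to 0.25) and -0.17 for Krt18 (-0.59 to 0.25). The other Krt8 probe sets gave -0.14 and -0.13, and the 3 followed one another over the mice at r = 0.981 to 0.986.

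Over the mice Krt8 went with Krt18 and Krt7 against Muc1, as given further below. These relations did not pass the adjusted threshold without the 2 mice farthest from the median. The promoters of these 4 genes are given next. They are the 250 bases before the RefSeq start in build GRCm38.p6, read 5′ to 3′ on the gene's strand. Capitals mark matches to TATAA (core promoter box) and to GGGCGG (GC box), each searched on both strands. Such promoters were at hand for 7 of the 10 members, and not for Krt19, Sox9 and Car2.
Krt8 (chr15:102004343-102004592, minus strand): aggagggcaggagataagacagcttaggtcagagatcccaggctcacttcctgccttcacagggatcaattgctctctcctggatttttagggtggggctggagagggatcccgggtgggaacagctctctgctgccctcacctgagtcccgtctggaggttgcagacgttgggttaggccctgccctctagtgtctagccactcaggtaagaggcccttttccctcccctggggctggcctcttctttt
Krt18 (chr15:102027966-102028215, plus strand): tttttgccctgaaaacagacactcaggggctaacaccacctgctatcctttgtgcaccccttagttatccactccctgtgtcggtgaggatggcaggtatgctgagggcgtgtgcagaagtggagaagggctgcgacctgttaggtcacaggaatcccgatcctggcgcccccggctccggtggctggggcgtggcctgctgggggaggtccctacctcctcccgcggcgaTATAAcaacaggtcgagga
Krt7 (chr15:101412153-101412402, plus strand): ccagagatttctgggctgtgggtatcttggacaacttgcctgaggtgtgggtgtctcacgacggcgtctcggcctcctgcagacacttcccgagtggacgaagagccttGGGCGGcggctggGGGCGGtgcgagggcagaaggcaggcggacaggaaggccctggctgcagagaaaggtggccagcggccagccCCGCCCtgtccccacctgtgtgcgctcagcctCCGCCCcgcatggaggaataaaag
Muc1 (chr3:89228806-89229055, plus strand): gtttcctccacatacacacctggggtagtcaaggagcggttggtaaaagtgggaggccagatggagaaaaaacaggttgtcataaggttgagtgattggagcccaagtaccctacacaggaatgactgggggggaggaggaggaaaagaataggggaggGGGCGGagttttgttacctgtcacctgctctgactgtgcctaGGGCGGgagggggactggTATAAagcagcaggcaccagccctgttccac
Krt8 and Krt18 face away from each other on chromosome 15 with 2 annotated noncoding genes between them. Krt7 held 4 GC boxes and Muc1 held 2, with 0 in Krt8 and Krt18 and at least 1 in 32.7% of all 32851 promoters. A TATAA was present in Muc1 and Krt18, as in 22.8% of all promoters. These matches describe letters and not binding.

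Sox9 encodes a transcription factor that maintains duct and progenitor identity. Its brightest probe set stood at 6.37, 6.45, 6.52, 6.48 and 6.39 in heterozygous replicates 1 to 5, and at 6.46, 6.82, 6.11, 6.41 and 6.66 in wildtype replicates 1 to 5. The heterozygous values lay close together inside the wildtype range, with an SD of 0.063 against 0.27. The difference was -0.050 (95% interval -0.33 to 0.23). The 2 dimmer Sox9 probe sets gave -0.26 (SE 0.15) and -0.23 (SE 0.14), and the 3 followed one another only loosely, at r = 0.472 to 0.543. The dimmest averaged 4.11 in heterozygous and 4.34 in wildtype islets, close to the filter value of 4.

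Cftr encodes the chloride channel of the duct cell's apical membrane, Car2 a carbonic anhydrase that supplies bicarbonate, and Aqp1 a water channel. Cftr lay between 3.17 and 3.81 in heterozygous and 3.38 and 3.83 in wildtype islets on its brighter probe set. Its other probe set averaged 3.48 ± 0.14 in heterozygous and 3.42 ± 0.099 in wildtype islets (SD, n = 5 each). Car2 lay between 2.25 and 2.80 in heterozygous and 2.23 and 2.53 in wildtype islets. At these levels a difference was not detectable, and absence of the transcripts does not follow. Of the 4 duct-restricted genes, Cftr was therefore not seen above the filter in these samples, while Krt19, Krt7 and Sox9 were.

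Aqp1 stood at 7.35, 7.79, 7.31, 8.10 and 7.72 in heterozygous replicates 1 to 5, against 8.01, 8.73, 8.83, 8.43 and 7.42 in wildtype replicates 1 to 5. All 5 heterozygous mice lay below the wildtype mean and 3 wildtype mice above every heterozygous mouse, while wildtype replicates 1 and 5 lay among the heterozygous values. The difference was -0.63 (SE 0.27), which puts heterozygous islets at 64.6% of wildtype (95% interval 43.0% to 96.9%). The unadjusted limma p was 0.0372 and the adjusted p = 0.9999, and the exact two-sided permutation test gave p = 0.0794.

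Endothelial and mesothelial cells, which also make Aqp1, had markers with lower means in heterozygous islets, with 0 adjusted calls in either list (limma) and 3 endothelial and 1 mesothelial gene under an unadjusted 0.05. Of all probe sets, 1.52% were under an unadjusted 0.05 on the lower side (limma), and 43.6% had a lower mean. Of 14 measured endothelial genes 13 had a lower mean in heterozygous islets (median -0.38), with list means of 6.92 to 7.58 in heterozygous and 7.34 to 7.98 in wildtype mice. The endothelial genes with the smallest p were Esam (-0.53, SE 0.17), Egfl7 (-0.61, SE 0.24) and Sox17 (-0.64, SE 0.27, another probe set opposite), with adjusted p = 0.9999 by limma for each, and Pecam1 lay under the filter. Of 11 mesothelial genes 5 were measured and 4 had a lower mean (median -0.62), with list means of 5.72 to 6.62 in heterozygous and 6.09 to 7.25 in wildtype mice. They include Msln (-0.62, SE 0.39) and 2 genes that stromal cells also make, Igfbp5 (-0.84, SE 0.37) and Efemp1 (-0.77, SE 0.40). Upk3b, a defining mesothelial gene under the filter, was at or below 2.03 in all 5 heterozygous mice, and at 2.03, 7.03, 4.54, 3.48 and 2.04 in wildtype replicates 1 to 5. The 3 wildtype mice with Upk3b above 3 were the 3 with the highest Aqp1. Upk3b was picked with its values known, so this match is a description and no support for a source of Aqp1. With the endothelial mean as a covariate the Aqp1 difference was -0.096 (SE 0.19) and with the mesothelial mean -0.16 (SE 0.16). For Krt19 it was -0.41 (SE 0.37) and -0.31 (SE 0.31). With the acinar mean it was -0.67 (SE 0.28) for Aqp1 and -0.57 (SE 0.30) for Krt19. The endothelial and mesothelial means themselves were lower in heterozygous islets, so these fits cannot separate genotype from cell content. The cause was not tested. Of 9 annotated red cell genes 8 lay under the filter, haemoglobin genes Hba-a1 and Hba-a2 among them, and Tfrc differed by -0.071 (SE 0.20).

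Muc1 encodes a membrane mucin of apical surfaces, and it spread more than any other member. It stood at 10.73, 10.96, 11.35, 10.61 and 8.92 in heterozygous replicates 1 to 5, and at 10.15, 11.48, 9.33, 10.84 and 10.57 in wildtype replicates 1 to 5. Heterozygous replicate 5 and wildtype replicate 3 were the low ones, the mice in which Krt7 was highest. The difference was 0.042 with a 95% interval of -1.01 to 1.10, so that Muc1 levels from 49.5% to 214% of wildtype lie inside it.

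Epcam encodes an adhesion molecule of epithelial cells. Its brighter probe set stood at 10.59, 10.40, 9.84, 9.90 and 10.36 in heterozygous replicates 1 to 5, and at 10.31, 10.16, 10.52, 10.44 and 10.37 in wildtype replicates 1 to 5. Heterozygous replicates 3 and 4 lay below every wildtype mouse and replicate 1 above every one. The difference was -0.14 (SE 0.15, limma adjusted p = 0.9999). Heterozygous replicates 3 and 4 also had the widest gaps between 3' and 5' control signals, at 3.56 and 3.59 against 3.21 to 3.37 in the other mice. With this gap as a covariate the Epcam difference was 0.052 (SE 0.11). Why these mice were low was not tested. The dimmer probe set gave -0.16 (SE 0.10), with the 2 following each other at r = 0.348.

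**Figure D2:**
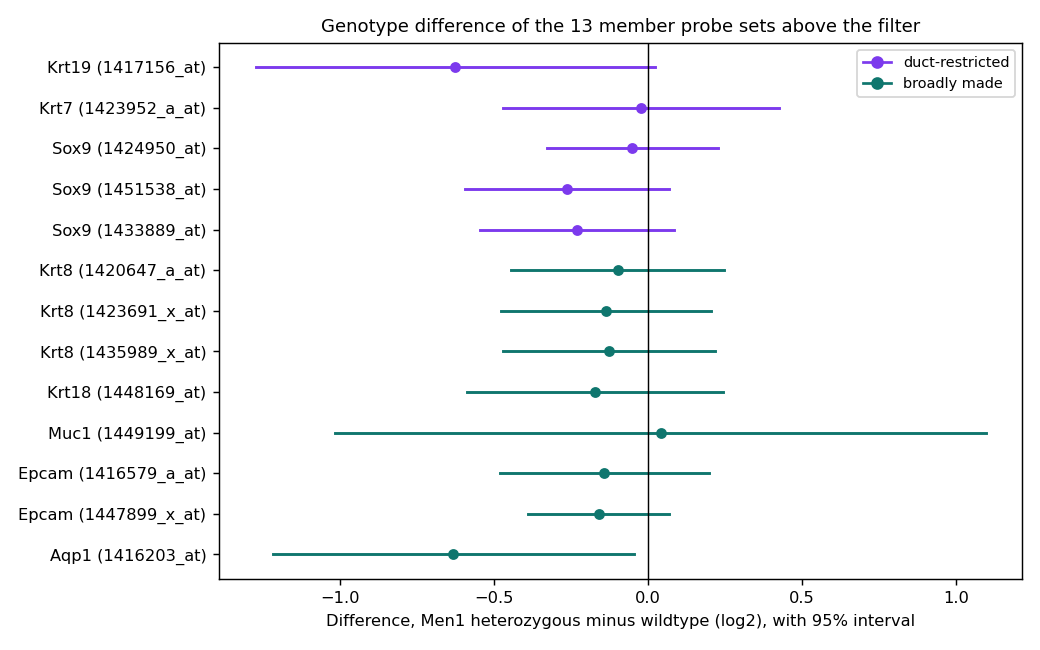
Difference between Men1 heterozygous and wildtype islets (horizontal axis, log2) for the 13 probe sets above the filter, as estimates with 95% intervals from limma. The estimates run from -0.63 for Aqp1 to 0.042 for Muc1, and the Aqp1 interval alone lies on 1 side of 0 before adjustment.

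Set side by side, the genotype differences of the duct-restricted genes lay inside the range of those of the broadly made genes. All 3 measured duct-restricted genes had a lower mean in heterozygous islets, with a median difference of -0.050 and a range of -0.62 to -0.022. Of the 5 measured broadly made genes 4 had a lower and 1 a higher mean, with a median of -0.14 and a range of -0.63 to 0.042. The median over all tested probe sets was 0.022. In each class 1 gene carried the wide difference, Krt19 in the first and Aqp1 in the second. The sign of the gap between the class medians changed with the setting (0.091, and -0.091 without heterozygous replicate 5), and no test was made of it.

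The members varied between mice along separate lines. Over the 28 pairs of the 8 measured genes Pearson's r ran from -0.942 to 0.910, and 4 pairs passed an adjusted p of 0.05 (permutation test, 100000 permutations, adjusted over the 28), with 0 passing by Spearman's rho. Krt8 and Krt18 went together (r = 0.910, permutation p = 0.00021, adjusted p = 0.00294, rho = 0.842, permutation p = 0.00384). Krt19 went with Krt18 (r = 0.820, permutation p = 0.00388, adjusted p = 0.0272, rho = 0.782, permutation p = 0.0101). Krt7 went against Muc1 (r = -0.942, permutation p = 0.00021, adjusted p = 0.00294, rho = -0.867, permutation p = 0.00184) and against Sox9 (r = -0.845, permutation p = 0.00306, adjusted p = 0.0272, rho = -0.794, permutation p = 0.00902). Krt19 and Krt7, both called duct-restricted, did not go together over these mice (r = -0.242, permutation p = 0.498, adjusted p = 0.806, rho = -0.067).

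Within genotypes, as deviations from the genotype means, r was 0.907 for Krt8 with Krt18, 0.830 for Krt19 with Krt18, -0.942 for Krt7 with Muc1 and -0.859 for Krt7 with Sox9. Krt19 with Krt18 did not pass there (adjusted p = 0.0653, exact permutation test), while Sox9 with Epcam did (r = -0.521, adjusted p = 0.0282, exact permutation test). Without the 2 mice farthest from the median of the first gene, these r were 0.796, 0.618, -0.832 and -0.839, and 0 of the 28 pairs passed the adjusted threshold. The mice left out were heterozygous replicate 5 and wildtype replicate 4 for Krt8 with Krt18. They were wildtype replicates 2 and 4 for Krt19 with Krt18, and heterozygous replicate 5 and wildtype replicate 3 for both Krt7 pairs. With 8 mice the adjusted p was 0.168 for Krt8 with Krt18 and for both Krt7 pairs and 0.490 for Krt19 with Krt18 (exact permutation test), so that the calls were not kept, although r for Krt7 with Sox9 was nearly as large.

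The members were then set against the mean of 5 marker lists per mouse, a comparison chosen after the values were seen. Of 40 relations 9 passed an adjusted p of 0.05 (permutation test, adjusted over the 40), 6 positive and 3 negative, and 7 passed by Spearman's rho, the exceptions being Sox9 with beta cell genes (adjusted p of rho = 0.0798, permutation test) and Krt19 with stromal genes (0.0608). Krt7 followed the mean of 8 beta cell genes (r = 0.927, permutation p = 0.00016, adjusted p = 0.0019, rho = 0.903, permutation p = 0.00084). It went against the mean of 16 acinar genes (r = -0.789, permutation p = 0.00505, adjusted p = 0.0286, rho = -0.855, permutation p = 0.00296). Muc1 did the opposite. Its r was 0.904 with the acinar mean (permutation p = 7e-05, adjusted p = 0.0019, rho = 0.855, permutation p = 0.00299) and -0.900 with the beta cell mean (permutation p = 0.00062, adjusted p = 0.00496, rho = -0.879, permutation p = 0.00181). Sox9 went against the beta cell mean (r = -0.764, permutation p = 0.00641, adjusted p = 0.0286, rho = -0.745, permutation p = 0.0179). In these samples Krt7 thus went with beta cell genes and not with Krt19 or Sox9, which its name as duct-restricted does not reflect.

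Aqp1 followed the endothelial mean (r = 0.907, permutation p = 0.00019, adjusted p = 0.0019, rho = 0.927, permutation p = 0.00028), the mesothelial mean (r = 0.928, permutation p = 0.00011, adjusted p = 0.0019, rho = 0.939, permutation p = 0.00019) and the stromal mean (r = 0.832, permutation p = 0.00381, adjusted p = 0.0254, rho = 0.867, permutation p = 0.00221). Krt19 followed the stromal mean (r = 0.799, permutation p = 0.00644, adjusted p = 0.0286, rho = 0.770, permutation p = 0.0122). All 11 measured stromal genes had a lower mean in heterozygous islets (median -0.67), led by the collagen gene Col3a1 (-1.08, SE 0.31), the proteoglycan gene Dcn (-0.64, SE 0.19) and Pdgfra (-0.78, SE 0.24), with adjusted p = 0.9999 by limma for each. Of the 11, 7 were under an unadjusted 0.05 (limma), beside 1.52% of all probe sets on the lower side, and 0 passed after adjustment. The stromal list mean lay between 8.31 and 9.75 in heterozygous and 9.21 and 9.83 in wildtype mice, with heterozygous replicate 4, the mouse with the highest heterozygous Krt19, at 9.75. The part of stromal cells in the Krt19 values was not tested. Krt8, Krt18 and Epcam passed with none of the 5 lists, with r from -0.53 to 0.62.

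Within genotypes r was 0.928 for Krt7 with beta cell genes, 0.927 for Muc1 with acinar genes, 0.855 for Aqp1 with endothelial genes, 0.900 for Aqp1 with mesothelial genes and 0.694 for Krt19 with stromal genes. Without the 2 mice farthest from the median of the list mean, these r were 0.787, 0.785, 0.862, 0.908 and 0.844, and 0 of the 40 passed the adjusted threshold, the smallest adjusted p being 0.0883 (exact permutation test over 8 mice). For the beta cell and acinar lists those mice were heterozygous replicate 5 and wildtype replicate 3. Calls were lost for all lists with 8 mice, also where r was not smaller, as for Krt19 with stromal genes. Krt19 with stromal genes passed with the adjusted p over all mice and not within genotypes (adjusted p = 0.102, exact permutation test). The lists are not independent of one another. The beta cell and acinar means were opposed (r = -0.774, permutation p = 0.00463, adjusted p = 0.0116 over 10 pairs of lists, rho = -0.806, permutation p = 0.00691), and the endothelial, stromal and mesothelial means went together at r = 0.853 to 0.864. Acinar and beta cell means had close group means, at 14.89 ± 0.30 and 12.61 ± 0.29 in heterozygous and 14.98 ± 0.14 and 12.62 ± 0.28 in wildtype islets (SD, n = 5 each). By genotype 3 acinar genes had a higher and 13 a lower mean (median -0.044), with Ctrc at -0.63 (SE 0.61) and Rbpjl at -0.28 (SE 0.40), and 4 beta cell genes had a higher and 4 a lower mean (median -0.0024), with G6pc2 at -0.18 (SE 0.24) and Pdx1 at 0.13 (SE 0.21). Most of the 16 acinar genes were very bright, such as Cela2a, an elastase gene (16.78 in heterozygous islets, 16.82 in wildtype islets), on arrays whose highest value was 17.58.

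**Figure D3:**
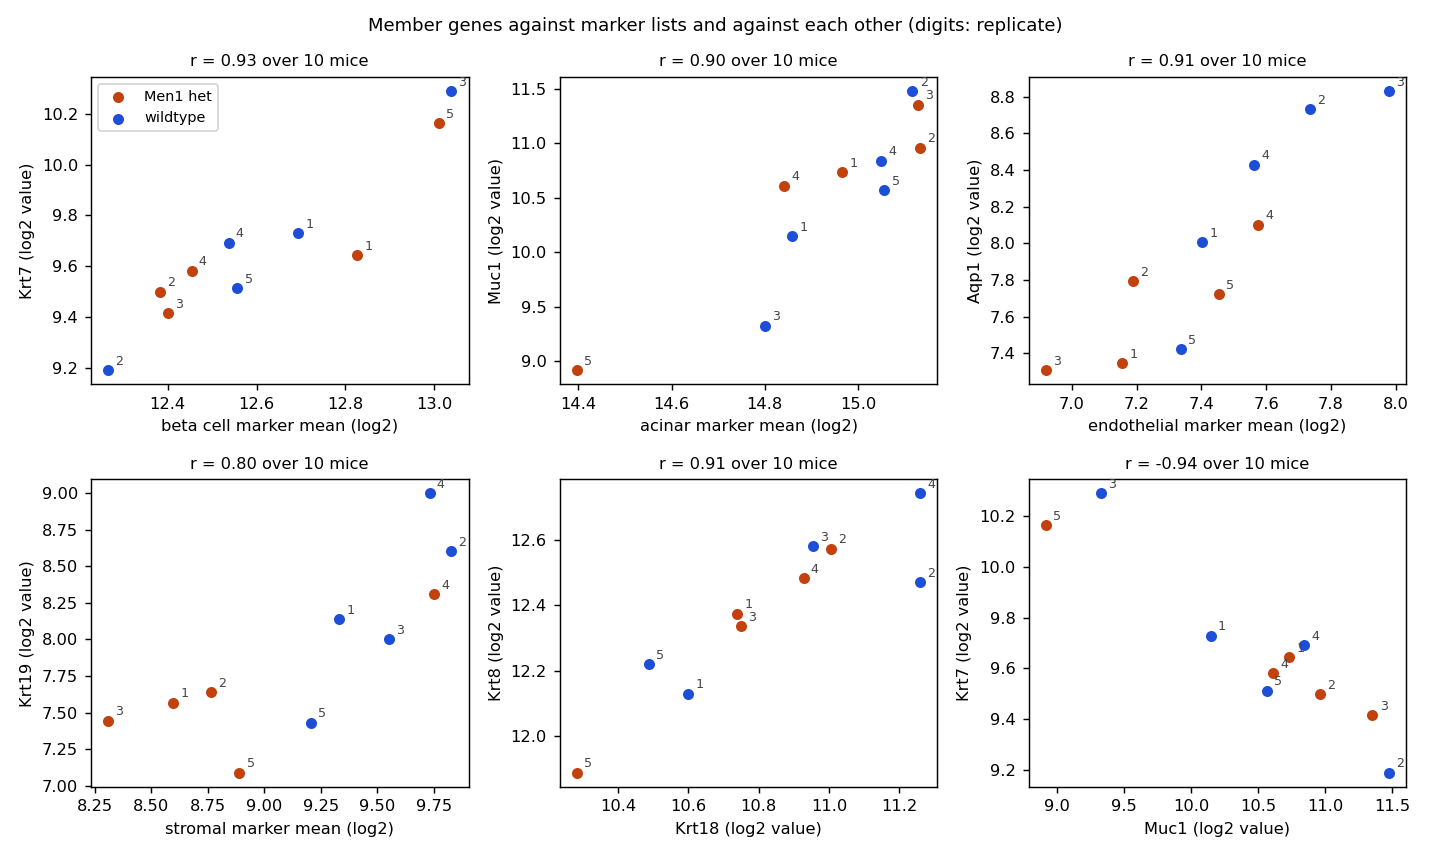
Each point is 1 mouse, with orange for Men1 heterozygous and blue for wildtype and the replicate number beside it, and both axes are log2 values or list means. Krt7 went up with beta cell genes (r = 0.927), Muc1 with acinar genes (0.904), Aqp1 with endothelial genes (0.907) and Krt19 with stromal genes (0.799), while Krt8 followed Krt18 (0.910) and Krt7 opposed Muc1 (-0.942).

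**Figure D4:**
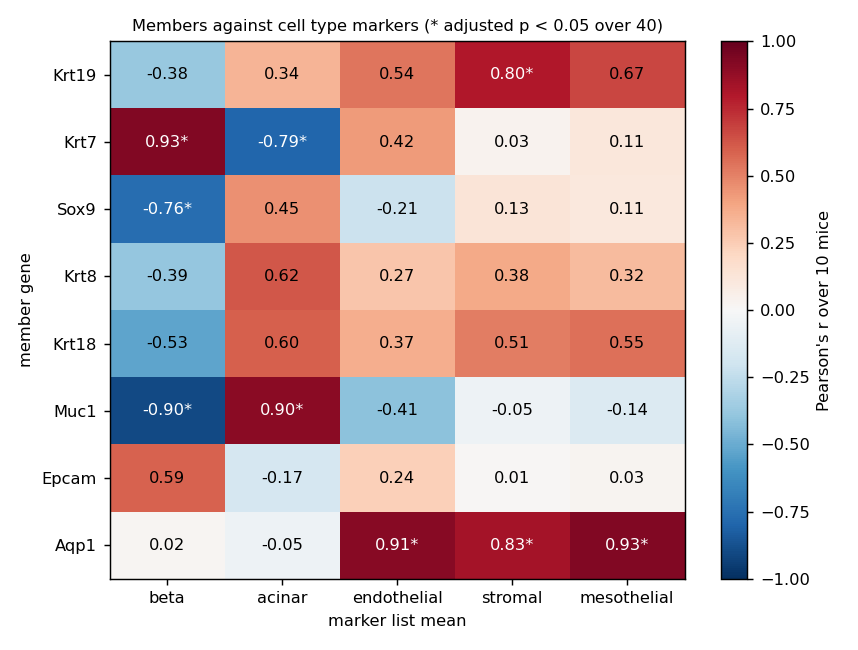
Pearson's r over the 10 mice between each measured member (rows) and the mean of each marker list (columns), on a colour scale from -1 to 1, with an asterisk where the permutation p adjusted over the 40 relations was below 0.05. Krt7, Muc1 and Sox9 stand out in the beta cell or acinar columns, and Aqp1 and Krt19 in the stromal column, with Aqp1 also in the endothelial and mesothelial columns.

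The genes with the levels most like those of the 3 measured duct-restricted members were sought among 10537 other genes, as a description over 10 arrays. For Krt19 they were Stbd1, a glycogen-binding protein gene (r = 0.942), Fcgrt, which encodes the neonatal Fc receptor (0.939), and Mon1a (0.925). For Krt7 they were Fam183b (0.962), Bex3 (0.960) and 0610040J01Rik (0.957), and for Sox9 Rras2 (0.907), Rassf7 (0.901) and B4galt1 (0.899). None of the 9 is a member of the duct lists.

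Further lists hold genes of duct cells, some of them also made by other cells. The amount of duct in the samples was not measured. Of 19 annotated genes of bicarbonate and fluid secretion 13 were measured, with 9 higher and 4 lower means and a median difference of 0.062. The secretin receptor gene Sctr lay under the filter, at 2.17 ± 0.044 in heterozygous and 2.25 ± 0.23 in wildtype islets (SD, n = 5 each). The smallest p in this list belonged to the adenylyl cyclase gene Adcy6 (-0.27, SE 0.17), the muscarinic receptor gene Chrm3 (-0.36, SE 0.26) and the bicarbonate cotransporter gene Slc4a4 (0.17, SE 0.13, another probe set opposite). Of 9 annotated duct transcription factor genes 8 were measured, with 4 higher and 4 lower means and a median of -0.020. Among them were the Notch target Hes1 (-0.57, SE 0.23), Yap1 (-0.31, SE 0.18) and Foxa2 (0.076, SE 0.093).

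Of 13 measured surface and secreted genes 6 had a higher and 7 a lower mean, with a median of -0.071. The annexin genes Anxa2 (-0.66, SE 0.29), Anxa3 (-0.68, SE 0.30) and Anxa1 (-0.74, SE 0.34), which encode membrane-binding proteins made by many cells besides ducts, had the smallest p. The stem and duct marker gene Prom1 was at 11.70 ± 0.37 in heterozygous and 11.79 ± 0.29 in wildtype islets. Of 7 measured genes of the primary cilium, which duct cells carry, 3 had a higher and 4 a lower mean (median -0.044), with Bicc1 at -0.41 (SE 0.22), Pkhd1 at -0.18 (SE 0.27) and Tulp3 at -0.11 (SE 0.19).

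Junction genes shared by all epithelia stood near 0. Of 28 measured ones 16 had a higher and 12 a lower mean, with a median of 0.043. The smallest p belonged to Jup, which encodes plakoglobin (-0.31, SE 0.20), the tight junction gene Marveld2 (0.20, SE 0.14) and the catenin gene Ctnnd1 (-0.15, SE 0.10, another probe set opposite). Among 6 measured keratin partners and other filament genes 5 had a higher mean (median 0.14). Dsp, whose product desmoplakin anchors keratin filaments at desmosomes, stood at 11.77, 11.80, 11.83, 11.88 and 11.96 in heterozygous replicates 1 to 5, against 11.31, 11.55, 11.54, 11.39 and 11.87 in wildtype replicates 1 to 5. Of the wildtype mice 4 lay below all heterozygous mice and wildtype replicate 5 among them (difference 0.31, SE 0.11). Vim, a filament gene of mesenchymal cells, was at -0.61 (SE 0.34) and Krt23 at 0.27 (SE 0.22). Over these 6 lists, chosen with earlier results known, 0 genes passed an adjusted p of 0.05 (limma), with adjusted p = 0.9999 by limma for each gene named. Under an unadjusted 0.05 (limma) were Hes1, Anxa2, Anxa3 and Dsp. These were 1 of 8 transcription factor, 2 of 13 surface and secreted and 1 of 6 keratin partner genes. There were 0 of 13 secretion, 0 of 28 junction and 0 of 7 cilium genes, beside 4.09% of all probe sets.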

How the data were processed

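Each of 10 arrays measured islet RNA of 1 mouse. The authors' deposited log2 values, 1 per probe set and array, come from GCRMA (per the submitters' processing notes), so that dim probe sets sit near a shared floor. The sources used here name no version. Probe sets were named through the platform annotation: of 45037 without controls (64 left out), 34945 had 1 gene symbol, 932 had more than 1 and went unnamed, and 9160 had none listed. A probe set was kept with a log2 value above 4 on at least 5 arrays. The genotype difference was fitted with lmFit and eBayes of limma 3.58.1 (R 4.3.3) over all kept probe sets without covariates, two-sided. Tests on simulated data with 200 changed of 18567 probe sets recovered 38.4% of 1.5-fold and 75.2% of 2-fold changes. A gene stands for its probe set with the highest mean. Correlations were tested with 100000 permutations. Genes named are the members, the 3 with the smallest p per list and the 3 most like each duct-restricted member. Prom1, Sctr, Upk3b, Pecam1, Krt20, Fabp2, Hba-a1 and Hba-a2 were picked for naming with their values known, as was the correlation of members with marker lists. Members, lists and tests were chosen with earlier results of these data known. Alternatives were other filters, scalings, variance models, covariates, the replicate number as a block, arrays left out, another test, threshold and probe set rule. Same-numbered mice were not treated as pairs, since the sources used here do not say whether they share a litter. The correlation of their deviations from the genotype means ran from -0.28 to 0.11, which cannot settle it. Sequences are from RefSeq (GRCm38.p6). Plots used matplotlib 3.10.9 (Python 3.11.15).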

Additional observations from a re-analysis of the deposited data

Results flagged for a closer look

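In groups of 5 mice, 7 of 102 sets of values had 1 mouse far from the others, where chance flags about 1 in 20. Of these, 2 were member probe sets, among 26 sets tested. The dimmest of 5 heterozygous values of the second Epcam probe set was 6.47 in replicate 3 (next 6.79), and the brightest wildtype value of the second Sox9 probe set was 5.06 in replicate 2 (next 4.73). The others were Yap1 at 8.75 in wildtype replicate 2 (next 8.15), Slc4a4 at 4.34 in wildtype replicate 4 (next 4.51), Chrm3 at 2.88 in heterozygous replicate 5 (next 4.23) and at 4.62 in wildtype replicate 2 (next 4.32), and the acinar gene Ctrc at 15.52 in wildtype replicate 5 (next 12.75).

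Krt20, a keratin of intestinal epithelium that was under the filter, reached 7.83 in heterozygous replicate 2, while every wildtype mouse was at or below 2.68. In the same mouse the intestinal gene Fabp2 was at 12.62, at 2.34 to 6.70 in the other heterozygous mice and at 2.26 to 4.71 in wildtype mice. The members Krt8, Krt18, Krt19 and Epcam, which intestinal epithelium also makes, were at 12.57, 11.01, 7.64 and 10.40 in that mouse, inside the range of the other 9 mice. Among heterozygous mice it was the highest for Krt8 and Krt18. Without this mouse the differences were -0.16 for Krt8, -0.24 for Krt18, -0.63 for Krt19 and -0.19 for Epcam. All 4 measured intestinal genes had a higher mean in heterozygous islets, among them Fabp1 (2.83, SE 1.31), Vil1 (0.40, SE 0.23) and Lgals4 (0.53, SE 0.53), as did all 4 measured lymphocyte genes, among them Ms4a1 (1.03, SE 0.66), Ighm (0.95, SE 0.88) and Ptprc (0.49, SE 0.61), and 0 of the 8 passed an adjusted p of 0.05 (limma).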

How the results depend on the processing

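Under 26 alternatives 0 probe sets of the series and 0 member probe sets passed an adjusted p of 0.05 with limma or with the equal-variance test per probe set (760 probe sets lay under an unadjusted 0.05 with limma). Of 208 recomputed member differences 188 kept their direction, those of Krt19 (-0.82 to -0.31) and Aqp1 (-0.85 to -0.096) under all 26, and the smallest adjusted p was 0.760 (limma). The other filters, variance model, test and threshold and the replicate block leave a difference of means unchanged. Directions kept under these alternatives were therefore fixed in advance, and the count of 188 includes them. Differences near 0 changed sign: with the endothelial mean as a covariate Krt7 was 0.21 and Muc1 -0.53, with the mesothelial mean Krt7 was 0.022, Krt18 0.0033 and Muc1 -0.096, and with the gap between 3' and 5' control signals Krt7 was 0.085, Muc1 -0.20 and Epcam 0.052. Without heterozygous replicate 5 and wildtype replicate 3 together, chosen after seeing the data, Krt7 was 0.0039 and Krt8 0.052. The cause was not tested. Leaving out each mouse in turn gave -0.15 to 0.13 for Krt7, -0.24 to 0.44 for Muc1, -0.17 to 0.013 for Krt8 and -0.14 to 0.033 for Sox9. The gap between class medians ran from -0.091 to 0.14. Without the 2 mice farthest from the median 0 of 28 pairs of members passed, where 8 mice remain, against 4 with all mice. With the replicate number as a block, which gave Krt19 -0.62 (unadjusted limma p = 0.00121) and Aqp1 -0.63 (0.0388), 0 members passed, and 1 of 5 heterozygous mice correlated best with its own number. Dim signal limits Cftr and Car2.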
